A study of Mus musculus with 6 samples.

Results

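Aminoacyl-tRNA synthetases load each tRNA with its amino acid before the ribosome uses it. Mammalian cells make a cytosolic set and a separate, nuclear-encoded mitochondrial set, and several cytosolic enzymes are held with non-enzyme scaffold proteins in the multisynthetase complex. Many cytosolic synthetase genes are known targets of ATF4, the transcription factor of the amino acid response, which raises their transcription when amino acids run short. The 39 genes described here were taken by symbol: 20 for cytosolic enzymes, 16 for mitochondrial enzymes, whose names end in 2, and the 3 scaffolds Aimp1, Aimp2 and Eef1e1. They stand among 16390 different symbols on the array, and 35 of them had a probe that could be tested (17 cytosolic, 15 mitochondrial and 3 scaffolds). Dars, Sars, Vars and Sars2 are not analysed here.

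The cells were CH12F3-2A, a mouse B lymphoma line that can switch from IgM to IgA. They received by electroporation either a control siRNA (siControl, 3 samples) or an siRNA against Spt6 (siSpt6, 3 samples), a histone chaperone that travels with RNA polymerase II. All 6 samples were stimulated 24 h later with CD40L, IL4 and TGFb (CIT) and harvested after a further 24 h, so no unstimulated cells enter the comparison. Every sample was labelled in Cy5 and had its own 1-colour array. Values are intensities in arbitrary units with nearly the same median on every array (29.97 to 29.998), so they show a transcript relative to the rest of its array. As in any bulk sample, fewer cells of a type and less RNA per cell cannot be told apart.

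The targeted gene, Supt6, read 33.1, 32.1 and 32.1 in siControl and 25.1, 21.8 and 28.1 in siSpt6. Its groups did not overlap, but its log2 difference of -0.38 did not pass the threshold over all probes (limma adjusted p = 0.0973). Of the B cell markers, 9 were tested, and their summed intensity lay between 30416 and 34470 in siControl and between 31411 and 34667 in siSpt6, most of it Cd74. Of these 9, Cd79b and Blk rose (limma adjusted p = 0.0391 and 0.0393) and Cd22 fell (limma adjusted p = 0.0281). Of 4 plasma cell markers Xbp1 fell (limma adjusted p = 0.0481). All of these were named after their values were seen. Over all tested probes, 8.90% were lower and 7.43% higher past the threshold. At an unadjusted limma p under 0.05, 4 of the 9 B cell markers were higher and 1 lower, and the share of all probes at that p was not computed. The sums were 46.4 to 67.5 and 51.6 to 57.2 for 6 T cell markers, and 67.1 to 84.4 and 79.7 to 87.5 for 5 myeloid markers, with none of these 11 past the limma threshold and 1 of them at an unadjusted p under 0.05. Nothing in the labels makes the 3 samples of a group separate cultures, and the p-values here therefore rest on a spread that may be purely technical. The labels also do not say whether both groups were handled together, and any batch that went with the groups cannot be told apart from the siRNA.

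Most cytosolic synthetase transcripts were lower in siSpt6. Of the 17 tested, 13 fell and 1, Qars, rose, and the median log2 difference, siSpt6 minus siControl, was -0.83. Over all 21584 tested probes, 8.90% were lower past the same threshold (limma with Benjamini-Hochberg adjustment over all probes, adjusted p under 0.05), 7.43% were higher, and the median difference was 0.01. In all 13 the highest siSpt6 value was below the lowest siControl value, which held for 20.4% of the probes with 6 values, and 16.9% had the reverse, as Qars did. Brighter probes were lower more often: among probes at or above the median level, which hold 15 of the 17 cytosolic genes, 15.0% were lower past the threshold, 8.35% were higher, and the median difference was -0.07. The median cytosolic gene lay 0.87, 0.83 and 0.72 log2 units below its siControl mean on siSpt6 replicates 1, 2 and 3.

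**Figure D1:**
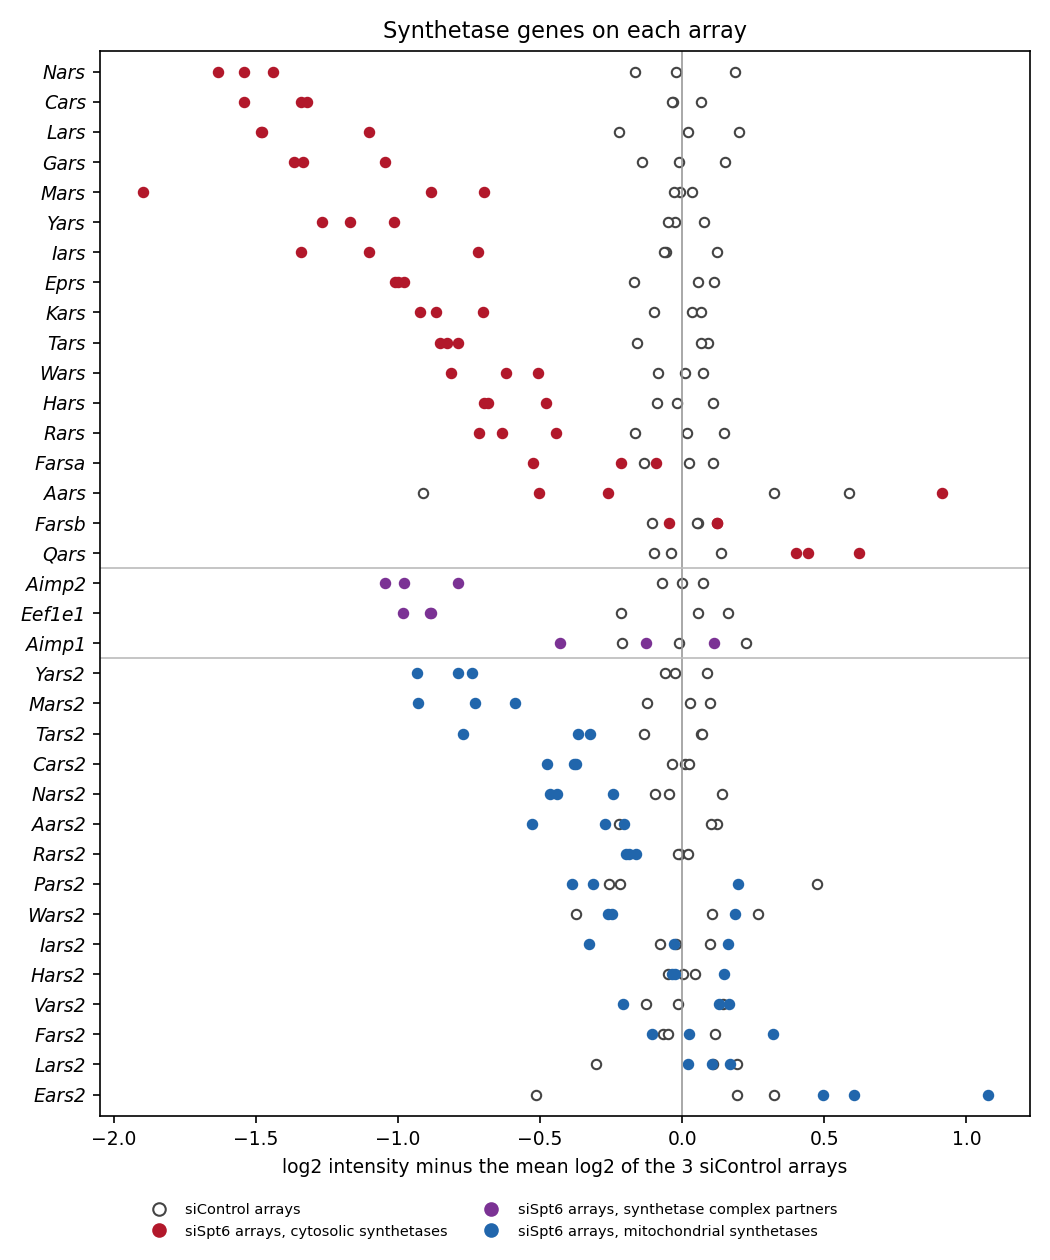
Log2 intensity of each tested gene on each array, minus the mean log2 of its 3 siControl arrays (horizontal axis). Open points are siControl arrays and filled points are siSpt6 arrays, coloured by set. The filled points of 13 cytosolic enzymes, 2 scaffolds and 6 mitochondrial enzymes lie wholly to the left of the open ones, and those of Qars and Ears2 wholly to the right.

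Nars, which charges tRNA with asparagine, had the most negative log2 difference of the set. It read 2614, 2262 and 2048 in siControl and 846, 789 and 739.7 in siSpt6, a 2.90-fold fall (log2 difference -1.54, SE 0.14, limma adjusted p = 0.00124). Its highest siSpt6 value was thus far below its lowest siControl value. Cars, the cysteine enzyme, read 663, 711 and 661 in siControl and 272, 233 and 267 in siSpt6, a 2.64-fold fall (log2 difference -1.40, SE 0.12, limma adjusted p = 0.00106). Lars, the leucine enzyme, was the dimmest cytosolic gene that fell. It read 266, 235 and 198 in siControl and 108, 82.9 and 82.7 in siSpt6, a 2.56-fold fall (log2 difference -1.35, SE 0.17, limma adjusted p = 0.00370). Lars is also an older symbol of 4930503L19Rik, which has a probe of its own.

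Gars, the glycine enzyme, was the brightest cytosolic probe, and its gene also supplies the mitochondria. It read 3461, 3785 and 4233 in siControl and 1479.6, 1511 and 1849.7 in siSpt6, a 2.38-fold fall (log2 difference -1.25, SE 0.14, limma adjusted p = 0.00285). Kars, the lysine enzyme, likewise serves both compartments from a single gene. It read 3012, 2747 and 3082 in siControl and 1613, 1811 and 1554 in siSpt6, a 1.78-fold fall (log2 difference -0.83, SE 0.12, limma adjusted p = 0.00613). In both genes each siSpt6 array lay well below the siControl arrays.

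Yars, for tyrosine, read 1113, 1096 and 1196 in siControl and 505, 472 and 562 in siSpt6, 2.22-fold lower (limma adjusted p = 0.00214). Iars, for isoleucine, read 1297, 1465 and 1288 in siControl and 628, 531 and 819.7 in siSpt6, 2.08-fold lower (limma adjusted p = 0.00997). Iars varied more among the siSpt6 arrays than Yars did, yet none of its values reached the siControl range. Eprs, a fused enzyme that charges both glutamate and proline, read 1167, 1122 and 960.3 in siControl and 548, 535 and 540.3 in siSpt6, 2.00-fold lower (limma adjusted p = 0.00351). Tars, for threonine, read 1529, 1504 and 1287 in siControl and 795, 809 and 830.0 in siSpt6, 1.77-fold lower (limma adjusted p = 0.00614). The siSpt6 values of Eprs (SD 6.12) and Tars (SD 17.6) were close together for their level.

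Mars, which charges methionine to both initiator and elongator tRNA, was the least even of the genes that fell. It read 1244, 1227 and 1281 in siControl and 678, 336 and 771 in siSpt6, and siSpt6 replicate 2 lay far below the others. Its 2.23-fold fall passed the threshold narrowly (log2 difference -1.16, SE 0.30, limma adjusted p = 0.0435). The call was lost without siControl replicate 1, 2 or 3 or without siSpt6 replicate 1 (limma adjusted p up to 0.0987). With siSpt6 replicate 2 left out the log2 difference was -0.79 and the call was kept (limma adjusted p = 0.0241).

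The remaining falls were smaller. Wars, for tryptophan, read 392, 438 and 419 in siControl and 237, 292 and 271 in siSpt6, 1.57-fold lower (limma adjusted p = 0.0171). Hars, for histidine, read 792, 725 and 690.4 in siControl and 527, 458 and 453 in siSpt6, 1.54-fold lower (limma adjusted p = 0.0178). The groups of these genes did not overlap, and with an array left out the log2 difference stayed between -0.72 and -0.56 for Wars and between -0.69 and -0.57 for Hars. Wars missed the threshold without siControl replicate 2 or siSpt6 replicate 1 (limma adjusted p up to 0.0588), and Hars without siControl replicates 1 or 2 or siSpt6 replicates 2 or 3 (limma adjusted p up to 0.0623). Rars, for arginine, read 2067, 2348 and 2572 in siControl and 1705, 1413 and 1496 in siSpt6, 1.51-fold lower (limma adjusted p = 0.0297). Its groups did not overlap either. Its log2 difference stayed between -0.68 and -0.52 with an array left out, and it missed the threshold without siControl replicates 2 or 3 or siSpt6 replicates 2 or 3 (limma adjusted p up to 0.0903).

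Qars, the glutamine enzyme, went the other way. It read 917, 957 and 1082 in siControl and 1337, 1297 and 1512 in siSpt6, so every siSpt6 array lay above every siControl array. Its 1.40-fold rise passed the threshold narrowly (log2 difference 0.49, SE 0.13, limma adjusted p = 0.0434). With any 1 of the 6 arrays left out it missed the threshold (limma adjusted p from 0.0547 to 0.124), while the log2 difference stayed between 0.42 and 0.56. After quantile normalization the rise was 0.74 on the log2 scale (limma adjusted p = 0.0096).

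Aars, Farsa and Farsb did not pass the threshold. Farsa, a subunit of the phenylalanine enzyme, read 593, 531 and 628 in siControl and 502, 405 and 547 in siSpt6 (log2 difference -0.28, 95% interval -0.64 to 0.08, limma adjusted p = 0.278). Farsb, its other subunit, read 25.6, 25.5 and 22.9 in siControl and 23.9, 26.8 and 26.8 in siSpt6 (log2 difference 0.07, 95% interval -0.21 to 0.35, limma adjusted p = 0.762). The groups of both overlapped. Aars, the alanine enzyme, had a very dim probe, at percentile 10.7 of probe levels, that read 1.62, 3.80 and 4.57 in siControl and 2.14, 2.53 and 5.73 in siSpt6. Its interval, -1.12 to 1.22 on the log2 scale, was too wide to show a change of the size seen in most of the set (limma adjusted p = 0.963).

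Both structural subdivisions of the cytosolic set held falls. Of 7 tested enzymes of the multisynthetase complex, 6 fell and Qars rose (median log2 difference -0.996). Of 10 outside it, 7 fell and none rose (median -0.74), also at an unadjusted limma p under 0.05. By catalytic fold, 7 of 8 class I enzymes fell and Qars rose (median -1.10), and 5 of 8 class II enzymes fell and none rose (median -0.72). The fused enzyme Eprs, which fell, was counted in neither fold. For all of these counts, 8.90% of all probes were lower, and 15.0% of those at or above the median level. Of 11 tested enzymes listed as known ATF4 targets, 10 fell, the exception being the dim Aars (median -1.15). Of the other 6, Kars, Hars and Rars fell and Qars rose (median -0.44), and with quantile or cyclic loess normalization Kars alone of the 6 still fell. Differences between these subdivisions were not tested.

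The promoters of some of the genes that fell hold a sequence that ATF4 and C/EBP partners are known to bind, with the core TGATGNAA. The 4 genes shown are those that fell and held a match in the window searched. Each stretch runs from 120 bases before to 30 bases after the start, on the gene's own strand, from RefSeq on the build GRCm38.p6, with the match, read on either strand, in capitals.
Gars, chr6:55037881-55038030, plus strand: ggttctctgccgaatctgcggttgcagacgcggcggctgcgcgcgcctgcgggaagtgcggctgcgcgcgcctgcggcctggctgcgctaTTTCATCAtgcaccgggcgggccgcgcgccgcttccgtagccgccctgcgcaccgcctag
Iars, chr13:49682010-49682159, plus strand: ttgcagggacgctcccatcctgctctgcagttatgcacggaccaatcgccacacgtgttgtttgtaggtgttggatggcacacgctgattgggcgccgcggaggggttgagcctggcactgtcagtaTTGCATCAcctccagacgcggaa
Tars, chr15:11399629-11399778, minus strand: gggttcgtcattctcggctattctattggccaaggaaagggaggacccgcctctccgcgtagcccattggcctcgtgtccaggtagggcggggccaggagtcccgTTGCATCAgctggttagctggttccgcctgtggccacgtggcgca
Yars, chr4:129189783-129189932, plus strand: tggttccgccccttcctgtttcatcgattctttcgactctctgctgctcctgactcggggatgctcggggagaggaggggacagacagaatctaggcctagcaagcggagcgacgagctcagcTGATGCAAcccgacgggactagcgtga
In windows from 250 bases before to 50 after the start, TGATGNAA was found on either strand in 5 of the 13 cytosolic genes that have a window (Aars, Gars, Iars, Tars and Yars). It was found in 0 of 14 mitochondrial genes, 0 of 3 scaffold genes and 4.51% of all 27025 genes with a window. Of the 7 cytosolic genes that fell and have a window, 4 held it and 3 did not. Nars, Cars and Lars, which had the largest falls, have no window and were not searched, and nor were Hars, Rars and Wars. Its first base lay at -30 in Gars, +8 in Iars, -15 in Tars and +4 in Yars. Aars, whose dim probe gave no call, held 2 matches, at -112 and +10. The E-box CACGTG, which MYC, USF and related factors are known to bind, was in 4 of 13 cytosolic windows, 1 of 14 mitochondrial windows (Ears2) and 8.09% of all genes with a window. A match is a description of the letters, and binding was not measured here.

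Of the scaffolds, 2 fell. Aimp2, which holds much of the complex together, read 834, 793 and 878 in siControl and 404, 423 and 483 in siSpt6, 1.92-fold lower (log2 difference -0.94, SE 0.12, limma adjusted p = 0.00432). Eef1e1, the smallest of them and also named AIMP3, read 1056, 1136 and 874 in siControl and 551, 515 and 549.9 in siSpt6, 1.89-fold lower (log2 difference -0.92, SE 0.14, limma adjusted p = 0.00652). The groups of both were well apart. Aimp1, which binds tRNA, read 1784, 2099 and 1551 in siControl and 1646, 1335 and 1941 in siSpt6, with overlapping groups (log2 difference -0.15, 95% interval -0.59 to 0.29, limma adjusted p = 0.647).

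Of 15 mitochondrial enzymes tested, 3 fell, none rose and 12 did not pass the threshold, with a median log2 difference of -0.17. The 3 falls are near the background: 8.90% of all probes were lower, and 15.0% of those at or above the median level, where 13 of the 15 lie. At an unadjusted p under 0.05 in the same limma fit, 5 were lower and 1 higher, and the share of all probes at that p was not computed. Yars2, for tyrosine, read 490.1, 454 and 443 in siControl and 267, 242 and 277 in siSpt6, 1.77-fold lower (log2 difference -0.82, SE 0.12, limma adjusted p = 0.00572). Mars2, for methionine, read 89.8, 77.0 and 85.4 in siControl and 50.7, 44.0 and 55.8 in siSpt6, 1.68-fold lower (log2 difference -0.75, SE 0.14, limma adjusted p = 0.0129). The groups of each gene lay well apart. Cars2, for cysteine, read 219, 212 and 221 in siControl and 168, 156 and 167 in siSpt6, 1.33-fold lower (log2 difference -0.41, SE 0.11, limma adjusted p = 0.0434). That small difference stood on tight replicates, and omitting any single array removed the call (limma adjusted p from 0.0789 to 0.116).

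In 3 further mitochondrial genes, all lower in siSpt6, the groups did not overlap but the threshold was missed. With the 3 that fell, 6 of the 15 had every siSpt6 value lower, against 20.4% of the probes with 6 values. Tars2 read 324, 281 and 324 in siControl and 181, 247 and 239.7 in siSpt6 (log2 difference -0.49, 95% interval -0.86 to -0.11, limma adjusted p = 0.0839). Nars2 read 131, 115 and 111 in siControl and 100.5, 86.2 and 87.6 in siSpt6 (log2 difference -0.38, 95% interval -0.69 to -0.08, limma adjusted p = 0.0917). Rars2 read 611, 623 and 608 in siControl and 535, 539 and 549 in siSpt6 (log2 difference -0.18, 95% interval -0.43 to 0.06, limma adjusted p = 0.293). The unadjusted intervals of Tars2 and Nars2 lie below 0, and that of Rars2 spans 0. Tars2 and Nars2 passed when only bright probes were tested, which gave 5 mitochondrial falls, where 23.3% of all bright probes fell.

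Lars2, the leucine enzyme of mitochondria, was the brightest of its set. It read 2283, 2422 and 1716 in siControl and 2382, 2145 and 2274 in siSpt6 (log2 difference 0.10, 95% interval -0.28 to 0.47, limma adjusted p = 0.735). Its groups overlapped. Ears2, for glutamate, was very dim, at percentile 21.1 of probe levels, and read 3.12, 5.57 and 5.09 in siControl and 6.28, 6.77 and 9.38 in siSpt6, all higher in siSpt6 but short of the threshold (log2 difference 0.72, 95% interval 0.11 to 1.34, limma adjusted p = 0.112). Aars2, Pars2, Wars2, Iars2, Hars2, Vars2 and Fars2 had log2 differences from -0.34 to 0.08, overlapping groups and limma adjusted p from 0.197 to 0.926.

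The names Hars2 and Vars2 needed care. The array has a probe under each of these symbols, but the first is also an older symbol of Dtd1 and the second of Vars, so the probes listed as Harsl and Vars2l were used for the mitochondrial enzymes. Harsl read 136, 145 and 141 in siControl and 138, 137 and 155 in siSpt6 (limma adjusted p = 0.903), and Vars2l read 88.0, 72.9 and 78.8 in siControl and 89.3, 68.9 and 87.2 in siSpt6 (limma adjusted p = 0.926). The probe listed as Hars2 read 335, 277 and 273 in siControl and 173, 202 and 173 in siSpt6 (log2 difference -0.69, SE 0.14, limma adjusted p = 0.0181). The probe listed as Vars2 read 463, 441 and 567 in siControl and 326, 374 and 328 in siSpt6 (log2 difference -0.51, SE 0.14, limma adjusted p = 0.0531). With those probes in place of the first pair, 4 mitochondrial genes fell and the median log2 difference was -0.34.

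Enzymes for the same amino acid can be set side by side in 14 pairs, Eprs against both Ears2 and Pars2. The cytosolic log2 difference was the lower in 13, and the median gap was -0.59. In 11 pairs the ratio of cytosolic to mitochondrial intensity was lower on each siSpt6 array than on every siControl array, and in 0 pairs higher. Both Eprs pairs are among the 11. The share of other probe pairs with such a ratio was not computed, so this count has no background beside it. The widest gaps between probes that were both above the dim range were those of Lars and Lars2 (-1.45, SE 0.13), Nars and Nars2 (-1.16, SE 0.05), Cars and Cars2 (-0.99, SE 0.06), and Iars and Iars2 (-0.99, SE 0.20). Tyrosine had a narrow gap, -0.33 (SE 0.08), and both Yars and Yars2 fell. The exception, Aars with Aars2 (0.38, SE 0.65), rests on the dim Aars probe. The gaps are descriptions and were not tested. With the probe listed as Hars2 in place of Harsl the histidine gap was 0.07 and the count 12 of 14 (median gap -0.48). The count was 13 of 14 after quantile and cyclic loess normalization too, with median gaps of -0.46 and -0.45.

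**Figure D2:**
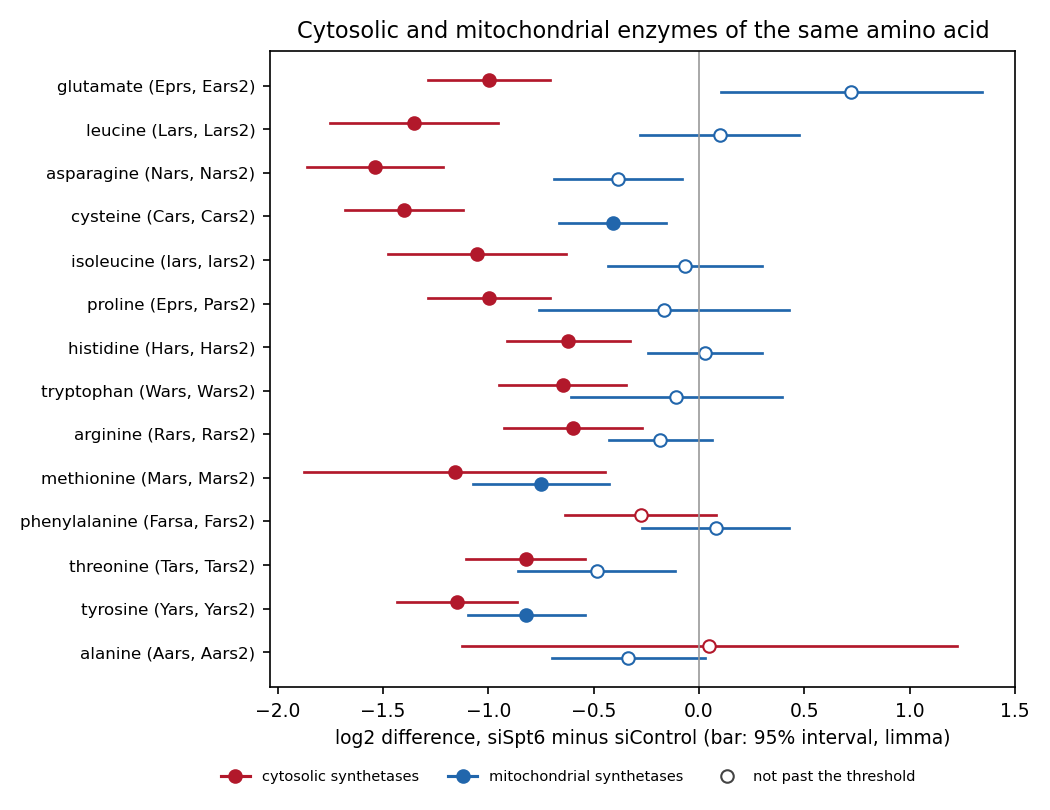
Log2 difference, siSpt6 minus siControl, of the cytosolic and mitochondrial enzymes of each amino acid, with 95% intervals from limma (horizontal axis). Filled points passed the threshold and open points did not. The cytosolic point lies to the left of its partner in 13 of 14 pairs, or 12 with the probe listed as Hars2 in place of Harsl.

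The sets differed in brightness, with median siControl intensities of 1083 for cytosolic, 119 for mitochondrial and 1022 for scaffold genes. Since brighter probes were lower more often, the log2 differences were also computed after 2 normalizations that even out such a dependence. The cytosolic median was then -0.58 (quantile) or -0.61 (cyclic loess), with 10 falls under each, and Mars, Hars and Rars lost their calls. The mitochondrial median was -0.13 or -0.16 with 2 falls, and both scaffolds kept theirs. Over all tested probes, 6.39% fell after quantile and 7.26% after cyclic loess normalization, against 8.90% as deposited. The part of brightness in the difference between the sets was not tested further. The same scalings changed the share of higher calls among all called probes from 45.5% to 57.3% (quantile) or 53.6% (cyclic loess).

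**Figure D3:**
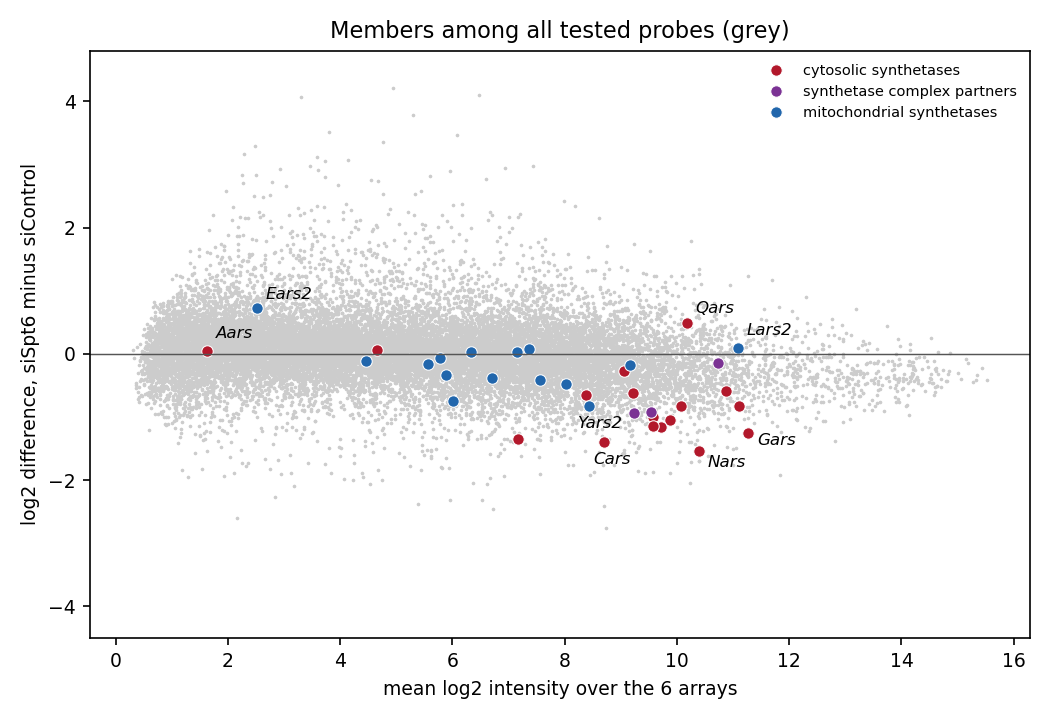
Log2 difference, siSpt6 minus siControl (vertical axis), against the mean log2 intensity over the 6 arrays (horizontal axis) for all tested probes in grey and for the members in colour. Cytosolic genes lie mostly below 0 at high intensity, and mitochondrial genes lie further left and nearer to 0.

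**Figure D4:**
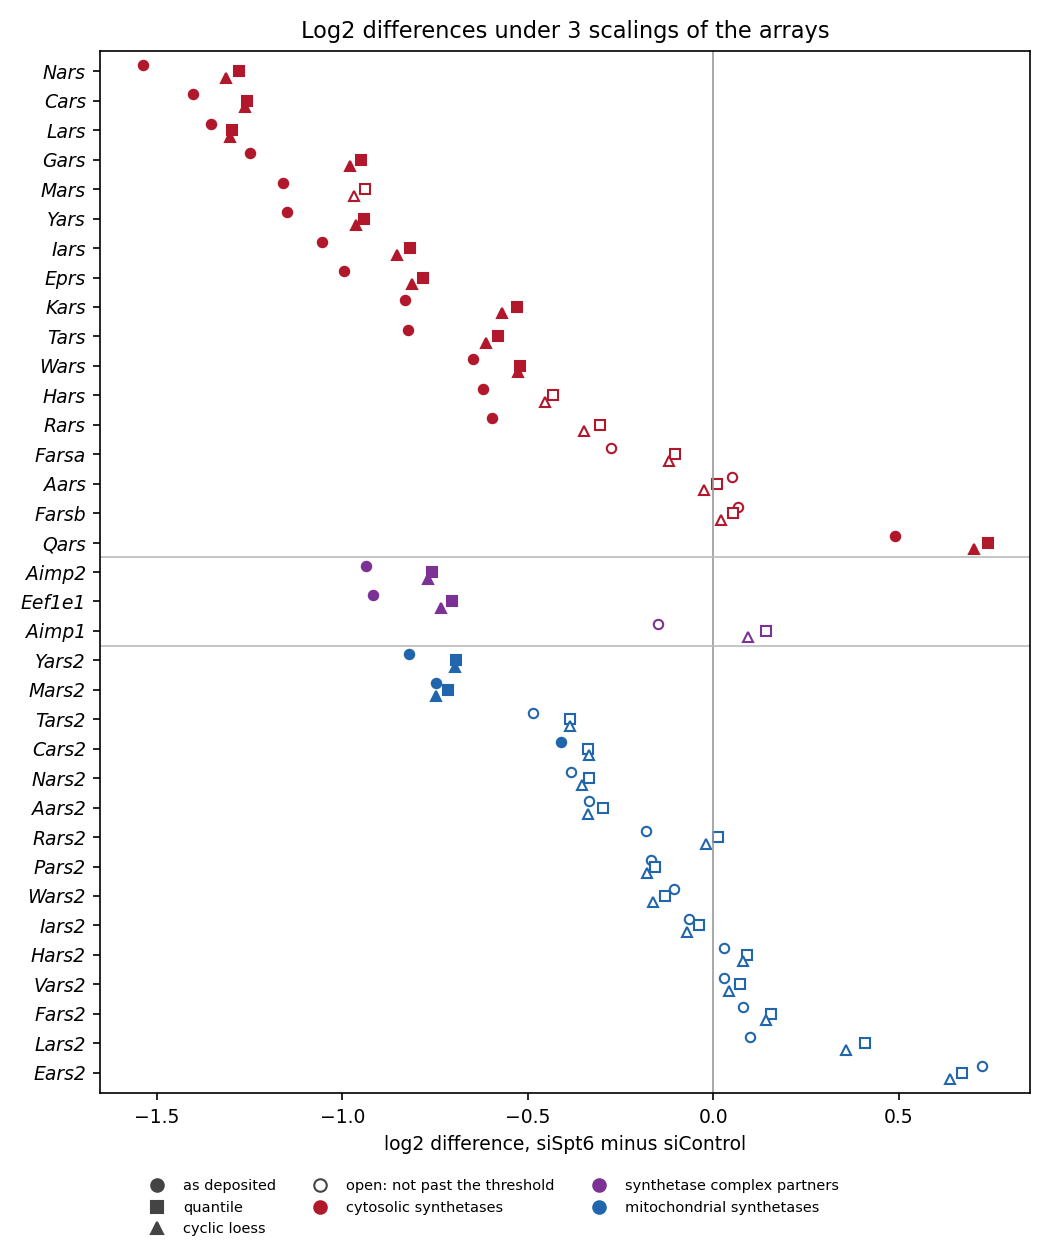
Log2 difference of each tested member (horizontal axis) as deposited, after quantile and after cyclic loess normalization, with open symbols for values that did not pass the threshold. Of 35 members, 31 lie further right after quantile and 28 after cyclic loess normalization, and 10 cytosolic genes still fell under each.

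Of 7 further tRNA charging genes tested, 1 fell and 2 rose (median log2 difference -0.29), against 15.0% lower and 8.35% higher among probes at or above the median level, where all 7 lie. Counts this small show nothing of the list as a whole. Sephs2, which makes the selenium donor for selenocysteine tRNA, went from 609.6 ± 60.9 to 320.1 ± 11.0 (mean ± SD of siControl, then of siSpt6, n = 3 each, as for the genes that follow; limma adjusted p = 0.00456). Gatb, a subunit of the amidotransferase by which mitochondria make glutaminyl-tRNA without a glutaminyl-tRNA synthetase, rose from 123 ± 6.40 to 193 ± 15.6 (limma adjusted p = 0.0134). Its partner subunit Qrsl1, named after its values were seen, rose from 215 ± 11.5 to 294 ± 14.4 (limma adjusted p = 0.0387), a call that each omission of a single array removed (limma adjusted p between 0.0689 and 0.110). The other subunit, Gatc, also named afterwards, went from 232 ± 27.2 to 182 ± 12.7 and did not pass the threshold (limma adjusted p = 0.134).

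Of 15 tested genes of tRNA maturation and export, 6 fell and 1 rose (median -0.34), where 8.90% of all probes were lower and 7.43% higher. Among probes at or above the median level, which hold 13 of the 15, 15.0% were lower and 8.35% higher. After quantile or cyclic loess normalization 4 fell and 2 rose, and 4 fell with any single array omitted. Xpot, the exporter of tRNA from the nucleus, fell from 235 ± 7.96 to 125 ± 12.8 (limma adjusted p = 0.00473). Elac2, which trims the 3′ end of tRNA precursors, fell from 134 ± 6.19 to 76.5 ± 1.68 (limma adjusted p = 0.00456). Among 4 genes of tRNA editing and repair, Aarsd1, an editing factor, rose from a dim 6.96 ± 0.730 to 14.5 ± 2.14 (limma adjusted p = 0.00652). None of the 4 fell, and 1 was lower at an unadjusted limma p under 0.05.

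None of 4 genes that bring charged tRNA to the ribosome or move it there passed the limma threshold, and 2 were lower at an unadjusted p under 0.05. Eef1a1, the main carrier, went from 54534 ± 2844 to 40927 ± 2659.9 (limma adjusted p = 0.0534). It passed the threshold in 5 alternatives, among them bright probes only (limma adjusted p = 0.0138) and trend and robust eBayes (0.00799), while cyclic loess normalization turned its sign. Eef2, the translocase, went from 7661 ± 559.7 to 6245 ± 187 (limma adjusted p = 0.137), and its sign turned after both normalizations. Of 8 mitochondrial translation factors, 3 were lower and 2 higher at an unadjusted limma p under 0.05. The share of all probes at that unadjusted p was not computed. Past the adjusted threshold 2 of the 8 fell, against 15.0% of probes at or above the median level, where all 8 lie. Mtrf1l and Mrrf fell (limma adjusted p = 0.0369 and 0.0407), and both calls were lost when any single array was omitted and after either normalization, when none fell and 1 rose. Mtif2 (log2 difference 0.44, limma adjusted p = 0.0704) and Mtrf1 (0.50, limma adjusted p = 0.108), named after their values were seen, were higher on all siSpt6 arrays.

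The ATF4 pathway outside the synthetases was lower as well: 15 of 19 tested genes fell, and the median log2 difference was -1.22. None rose in the limma fit even at an unadjusted p under 0.05. Over all tested probes 8.90% were lower, and 15.0% of those at or above the median level, which hold 17 of the 19. The 4 not past the threshold, named after their values were seen, were Asns, Atf5, Cebpb and Slc7a11. Cebpb was higher on all siSpt6 arrays, and the Asns and Slc7a11 probes were dim (siControl means 5.41 and 6.97). The count of falls was 15 after quantile and cyclic loess normalization and without any 1 array. Atf4 itself read 2719, 4008 and 3808 in siControl and 1092, 1114 and 1485 in siSpt6, with every siSpt6 array below every siControl array (log2 difference -1.51, SE 0.20, limma adjusted p = 0.00456). Chac1, which breaks down glutathione, fell from 961 ± 40.6 to 180.1 ± 6.82 (limma adjusted p = 0.000264). Cth, which makes cysteine from cystathionine, fell from 1106 ± 118 to 164 ± 18.3 (limma adjusted p = 0.000342). Whether the lower Atf4 bears on the synthetases was not tested.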

How the data were processed

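RNA from 3 siControl and 3 siSpt6 samples was read on 1-colour arrays. The deposited values are linear intensities in a table of 23473 probes, already scaled by the authors to a near-common median; no label or header names the background correction or the scaling method. Each array had a value for 21526 to 22372 probes, and the number of arrays limits the precision.

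Log2 intensities were fitted with limma 3.58.1 in R 4.3.3 (lmFit and eBayes, group as the only term, two-sided). Each group had to give a probe 2 or more of its 3 values for it to be tested, and p-values were Benjamini-Hochberg adjusted over all 21584 probes with a threshold of 0.05. Scripts were tested on simulated data. A gene is represented by its brightest probe under an unambiguous current or older symbol. Every member with a probe is named. Of other genes, Supt6, Atf4 and at most 2 per related list, those with the smallest adjusted p, are named unless stated. Members and lists were chosen with earlier results of these data known, so no list's p is given. Alternatives were normalization, dim and incomplete probes, a pseudocount of 2.66, variance model, array weights, replicate block, threshold, probe choice and leaving out each array. Promoters are from RefSeq (GRCm38.p6), with a window for 30 of 39 members.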

Additional observations from a re-analysis of the deposited data

How the results depend on the processing

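Of 19 called members, 13 kept their call in all 17 alternatives run for them at the threshold of 0.05, and no called member changed sign. Those that kept it include 9 of the 13 cytosolic falls (Cars, Eprs, Gars, Iars, Kars, Lars, Nars, Tars and Yars), Mars2, Yars2, Aimp2 and Eef1e1. The stricter threshold of 0.01 is not among the 17, and Mars2 missed it (limma adjusted p = 0.0129). The cytosolic falls numbered 10 after quantile and after cyclic loess normalization, 9 at an adjusted p under 0.01 and 9 to 11 with an array left out. Over all tested probes, 8.90% fell in the main fit, 6.39% after quantile and 7.26% after cyclic loess normalization. With an array left out, 4.94% to 6.76% of all tested probes fell. The cytosolic median log2 difference was -0.58 (quantile), -0.61 (cyclic loess), -0.996 (bright probes only) and -0.90 to -0.81 with an array left out. The mitochondrial falls numbered 5 with bright probes only, 5 with trend and robust eBayes and 1 at an adjusted p under 0.01. More probes fell in the first 2 of these settings: 23.3% of all bright probes, and 11.9% of all tested probes with trend and robust eBayes. The mitochondrial median was -0.34 with the shared-symbol probes, an alternative chosen after seeing the data, and -0.27 to -0.095 with an array left out. Over all probes 3525 passed the threshold, 1354 did at 0.01, and 2099 to 2522 did with an array left out (2099 without siControl replicate 1, 2230 without siControl replicate 2, 2308 without siSpt6 replicate 1 and 2160 without siSpt6 replicate 2). Supt6 passed only after cyclic loess (-0.42, limma adjusted p = 0.0491).

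Sign changes fell on uncalled genes, and their cause was not tested. After quantile normalization the log2 difference was 0.012 for Rars2, 0.14 for Aimp1 and 0.040 for Eef2. After cyclic loess it was -0.026 for Aars, 0.093 for Aimp1, 0.062 for Eef1a1 and 0.049 for Eef2. With the mean of a gene's probes it was -0.33 for Hars2 and -0.24 for Vars2, and with the shared-symbol probes -0.69 and -0.51. With an array left out it ranged from -0.41 to 0.34 for Aars, -0.041 to 0.17 for Fars2, -0.031 to 0.061 for Hars2, -0.18 to 0.067 for Iars2, -0.054 to 0.19 for Lars2, -0.35 to 0.070 for Pars2, -0.039 to 0.15 for Vars2 and -0.29 to 0.026 for Wars2. Dim probes such as those of Aars and Ears2 limit what can be seen.

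Replicate numbers are shared by the groups, but no label says that same-numbered arrays were handled together, and the main fit does not pair them. The deviations of same-numbered arrays correlated at 0.35, 0.08 and 0.26, and those of differently numbered arrays at -0.29 to 0.016. Each array correlated best with its own number, which is a hint from the data and not from the design. With the replicate block, 11 cytosolic and 2 mitochondrial genes fell, and 3594 probes in all passed the threshold, while Mars, Rars and Cars2 missed it (limma adjusted p = 0.0548, 0.0607 and 0.0517).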
